A study of Saccharomyces cerevisiae with 10 samples.

Results

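The genes described are those of the proteasome of budding yeast, chosen by name from the deposited table: RPN or RPT followed by a number, PRE1 to PRE10, PUP1 to PUP3, and SCL1. The rule found 32 genes among 5822. Of these, 31 encode subunits, and RPN4 is a transcription factor that shares the name pattern. RPN11 and RPN14, which the pattern also covers, were not analysed here.

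The series followed RNA of *Saccharomyces cerevisiae* around a hypo-osmotic shock, a shift to lower osmolarity in which water enters the cell. The first strain is labelled as a ppt1 deletion (PPT1 encodes a serine/threonine phosphatase that acts on the chaperone Hsp90), with arrays at 0, 7, 15, 30 and 60 min. The second is labelled wild type, with arrays at 0, 7, 16, 30 and 60 min. Each combination of strain and time had a single array, which compared total RNA of 1 sample with a reference in the second channel. The labels do not give the strain background, the medium, the size of the shift or the composition of the reference, nor whether separate cultures were used for the times. The p-values therefore reflect how far these arrays spread, and that spread could be technical.

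The proteasome is the ATP-dependent protease that degrades proteins tagged with ubiquitin. Its core particle is a stack of rings, with outer rings of alpha subunits that gate the entrance and inner rings of beta subunits, some of which carry the active sites. The regulatory particle caps the core and has a base, which holds the ATPases that unfold substrates, and a lid, which takes part in removing ubiquitin. RPN4 activates the genes of most subunits in yeast and is itself degraded by the proteasome.

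Of the members, 14 belong to the core particle. The alpha ring is complete with 7 genes (SCL1, PRE8, PRE9, PRE6, PUP2, PRE5 and PRE10), and so is the beta ring with 7 genes (PRE3, PUP1, PUP3, PRE1, PRE2, PRE7 and PRE4). The regulatory particle has 17 members. Its base holds 10 of them, the ATPases RPT1, RPT2, RPT3, RPT4, RPT5 and RPT6, the scaffolds RPN1 and RPN2, and the ubiquitin receptors RPN13 and RPN10, the last of which sits between base and lid. The lid holds 7, namely RPN3, RPN5, RPN6, RPN7, RPN8, RPN9 and RPN12. In the RefSeq gene table for assembly R64 the members lie on 13 chromosomes and none is next to another. In 2 pairs, PRE4 with RPN12 and RPT4 with RPN8, only 1 gene lies between the members.

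Values are log ratios of sample over reference, taken as log2 and centred so that the median gene of each array is 0. The base and the direction of the ratio are not stated. The direction is likely, since the labels call the second channel the reference, and with the ratio turned every sign below would turn. A ratio of 0.50 therefore says that the sample held more of that RNA than the reference did, relative to the median gene, and says nothing of how abundant one gene is beside another. Each ratio averages over a culture, so fewer cells with an RNA and less RNA per cell cannot be told apart. The arrays carried 5440 to 5807 values each, and the lowest correlation between arrays over all genes was 0.37. On the wild type 0 min array, 43.02% of the deposited values had 4 decimals, against 0% on every other array. PPT1 itself did not mark the strains, with ratios from -0.55 to 0.40 on the arrays labelled ppt1 and from -0.50 to 0.07 on the wild type arrays. The mutant arrays are for this reason called the arrays labelled ppt1.

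The median of the subunits was above the median gene on most of the 10 arrays, by up to 0.38 on the wild type 7 min array. On the arrays labelled ppt1 the median of the subunits was 0.12, 0.17, 0.09, -0.00 and 0.07 at 0, 7, 15, 30 and 60 min. On the wild type arrays it was 0.24, 0.38, 0.32, 0.24 and 0.16 at 0, 7, 16, 30 and 60 min. The median was lower on the array labelled ppt1 than on its wild type partner at each of the 5 times. The subunits also kept together, with a standard deviation over subunits of 0.18 to 0.33 on an array, against 0.35 to 0.52 over all genes.

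**Figure D1:**
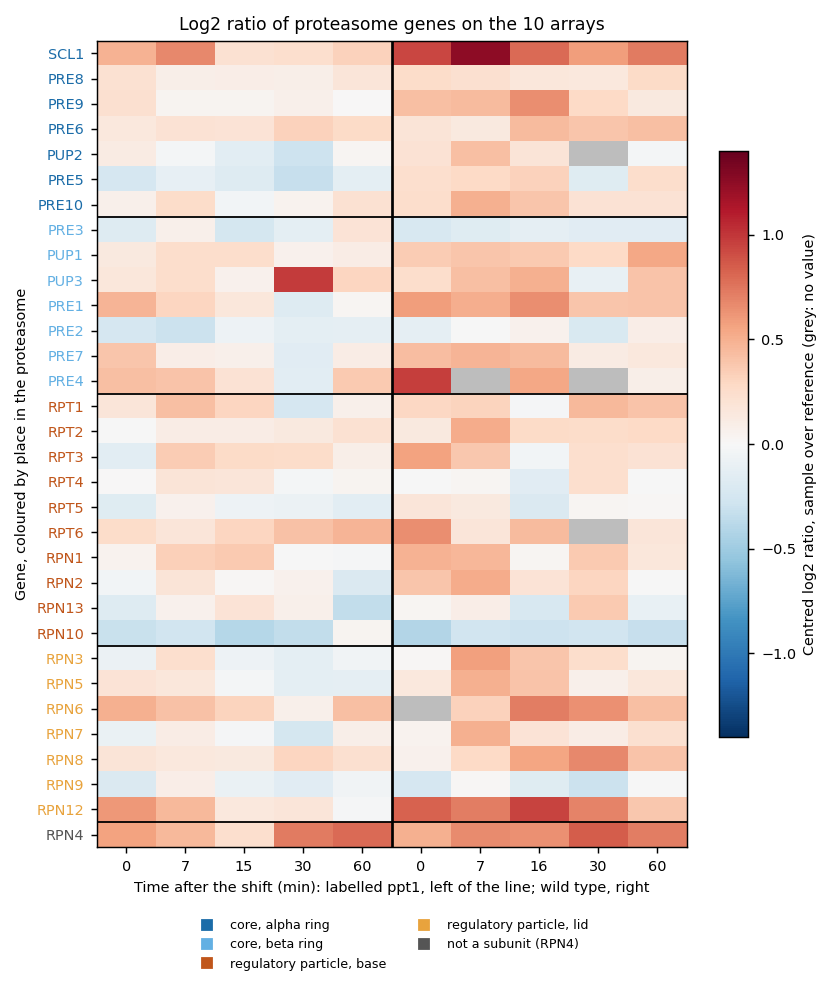
Centred log2 ratio of each of the 32 proteasome genes (y axis) on each array (x axis, minutes after the shift), with the 5 arrays labelled ppt1 left of the line and the 5 wild type arrays right of it. SCL1 and RPN12 are among the highest genes of the wild type arrays, RPN10 and PRE3 among the lowest, and grey squares are the 5 missing values.

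Of the 32 members, 28 had a value on every array. The 5 missing values all lay on wild type arrays: PRE4 at 7 and 30 min, PUP2 and RPT6 at 30 min, and RPN6 at 0 min. The fitted values of PRE4, PUP2 and RPT6 at those times, and of RPN6 at each later time against 0 min, rest on the array labelled ppt1 alone for the side that is missing.

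The first question was whether proteasome genes responded to the shift. No member passed the test at any later time. In limma, with time point and strain as additive terms and p-values adjusted by Benjamini-Hochberg over all genes, 0 of 32 members had an adjusted p under 0.05 at 7 min against 0 min, where 3.02% of all genes did. The count was 0 of 32 at 15-16 min (7.18% of all genes), at 30 min (11.4%) and at 60 min (12.3%). A test of any change over the 4 later times also called 0 of 32 (8.85% of all genes), and 60 min against 7 min called 0 of 32 (2.8% of all genes). At an unadjusted p under 0.05 the counts at 7, 15-16, 30 and 60 min were 3, 0, 5 and 3 members, with 1 for any time and 4 for 60 min against 7 min. Of all genes 16.2%, 22.3%, 27.9% and 27.7% reached that level at these times. The shares were 25.1% for any time and 17.2% for 60 min against 7 min. The members lay below the share of all genes in each comparison.

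These fits bound how large a change averaged over the 2 strains could have been missed. Changes in opposite directions cancel in that mean, so the response of a single strain is not bounded. RPT3 at 15-16 min, for example, moved from its 0 min value by 0.42 on the array labelled ppt1 and by -0.60 on the wild type array. Its fitted change was -0.09. At 7 min and at 15-16 min the 95% interval of the change lay inside 2-fold in either direction for all 31 subunits, compared with 94.3% and 91.3% of all genes. At 30 min it did so for 30 of 31 subunits and at 60 min for 31 of 31, compared with 89.1% and 89.4% of all genes. The exception at 30 min was PRE4, whose interval ran from -1.34 to -0.13. Were the deposited values natural logs, the counts inside 2-fold would be 27, 29, 23 and 27 of 31 at 7, 15-16, 30 and 60 min. On the log2 reading, inside the narrower bound of 1.5-fold lay 23, 28, 21 and 24 subunits at 7, 15-16, 30 and 60 min.

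**Figure D2:**
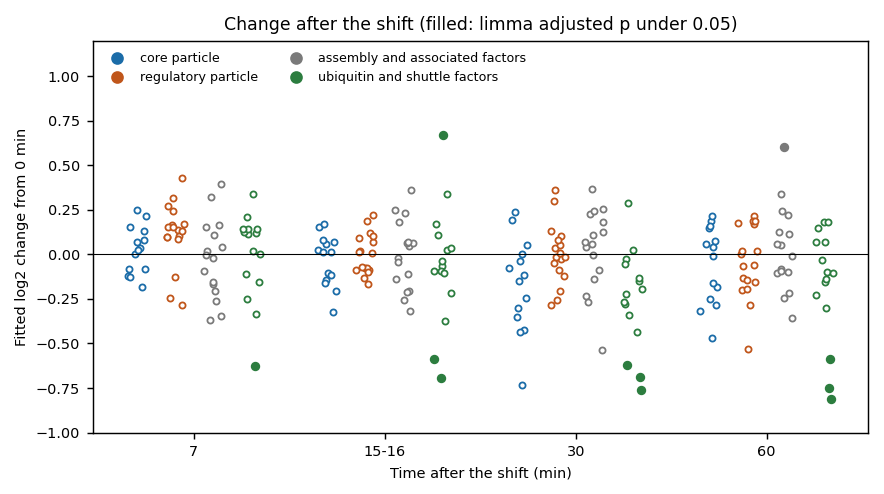
Fitted log2 change from 0 min (y axis) at 7, 15-16, 30 and 60 min (x axis) of each gene of the core particle and the regulatory particle, and of the related assembly and ubiquitin genes; filled points have a limma adjusted p under 0.05. No subunit is filled, and the subunits run from -0.74 for PRE4 at 30 min to 0.43 for RPN3 at 7 min, whereas the ubiquitin genes have filled points at every time and the assembly factors 1, POC4 at 60 min.

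At 7 min most lid and base genes had fitted changes above 0, none of them past the test. The median fitted change was 0.14 for the regulatory particle and 0.03 for the core particle, beside -0.01 for all genes. Of the regulatory genes 14 of 17 were above 0, whereas 51.3% of all genes were below 0. The 3 members with an unadjusted p under 0.05 were all of the lid: RPN3 at 0.43 ± 0.14 (SE, adjusted p = 0.160), RPN7 at 0.32 ± 0.13 (adjusted p = 0.261) and RPN9 at 0.27 ± 0.12 (adjusted p = 0.301). Each is a structural subunit of the lid. At this time 16.2% of all genes had an unadjusted p under 0.05.

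RPN3, the highest regulatory member at this time, had ratios on the arrays labelled ppt1 of -0.08, 0.23, -0.07, -0.14 and -0.05 at 0, 7, 15, 30 and 60 min. Its wild type ratios were 0.02, 0.57, 0.39, 0.24 and 0.03. Both strains were highest at 7 min, and the wild type was above its 0 min value by 0.37 at 16 min and by 0.22 at 30 min. RPN9 had -0.20, 0.09, -0.10, -0.16 and -0.05 on the arrays labelled ppt1, against -0.24, 0.02, -0.17, -0.30 and -0.01 on the wild type arrays. It too was above its 0 min value at 7 min in both strains, and the strains overlapped throughout.

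The lowest change at 7 min was that of RPT6, a base ATPase, in the regulatory particle and that of PRE4, the beta 7 subunit, in the core particle. RPT6 read 0.26, 0.17, 0.30, 0.41 and 0.47 on the arrays labelled ppt1, against 0.65, 0.17, 0.44 and 0.16 at 0, 7, 16 and 60 min on the wild type arrays. Its fitted change at 7 min was -0.28 ± 0.17 (adjusted p = 0.472), and at 60 min the array labelled ppt1 was the highest of its strain and the wild type array the lowest of its own. PRE4 read 0.42, 0.40, 0.20, -0.15 and 0.36 on the arrays labelled ppt1, against 0.96, 0.54 and 0.08 at 0, 16 and 60 min on the wild type arrays. The wild type values lay in time order from high to low, and the lowest value of the arrays labelled ppt1 was at 30 min.

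At 15-16 min the particles were both at the level of all genes. The median change was 0.02 for the core particle, 0.01 for the regulatory particle and -0.00 for all genes. The fitted changes ran from -0.32 for PRE4 to 0.22 for RPN8. PRE2, which carries the chymotrypsin-like active site, was the highest of the core at 0.17 ± 0.13 (adjusted p = 0.506). It read -0.23, -0.31, -0.07, -0.14 and -0.13 on the arrays labelled ppt1 and -0.13, -0.00, 0.06, -0.22 and 0.10 on the wild type arrays, so it stayed near the median gene in both strains.

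At 30 min most core genes had fitted changes below 0, none of them past the test. The median change of the core particle was -0.13, against -0.01 for the regulatory particle and -0.02 for all genes. Below 0 were 52.9% of all genes and 10 of 14 core genes. Those with an unadjusted p under 0.05 were the beta subunits PRE4 at -0.74 ± 0.26 (adjusted p = 0.114), PRE7 at -0.43 ± 0.14 (adjusted p = 0.0733) and PRE1 at -0.42 ± 0.14 (adjusted p = 0.0896), with the alpha subunit SCL1 at -0.30 ± 0.13 (adjusted p = 0.154). RPN8, the lid partner of the deubiquitinase subunit, went the other way at 0.36 ± 0.15 (adjusted p = 0.155). None of the 5 passed the adjusted threshold, and 27.9% of all genes had an unadjusted p under 0.05 at this time.

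RPN8 read 0.18, 0.15, 0.14, 0.30 and 0.23 on the arrays labelled ppt1, against 0.06, 0.28, 0.56, 0.68 and 0.40 on the wild type arrays. The wild type values were highest at 30 min and lowest at 0 min, while those of the arrays labelled ppt1 lay between 0.14 and 0.30. PUP3, the beta 3 subunit, was the highest core member at 30 min because of a single array. It read 0.15, 0.24, 0.06, 0.98 and 0.30 on the arrays labelled ppt1, against 0.24, 0.42, 0.50, -0.11 and 0.40 on the wild type arrays. The 0.98 at 30 min was the highest value of any member on an array labelled ppt1, beside the lowest wild type value of the gene at the same time. Its fitted change was 0.24 ± 0.29 (adjusted p = 0.652). With the wild type 30 min array left out, PUP3 alone passed at 30 min, at 0.88 with an adjusted p of 0.0240.

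At 60 min RPN12, a lid subunit, came nearest to the threshold at -0.53 ± 0.16 (adjusted p = 0.0555), while the medians were 0.02 for the core particle, -0.06 for the regulatory particle and -0.02 for all genes. RPN12 passed, at -0.53 with an adjusted p of 0.0428, when the test was confined to genes with a value on all 10 arrays, and it passed without either array of the 15-16 min pair, with an adjusted p of 0.0308. The scaffold RPN2 was at -0.28 ± 0.13 (adjusted p = 0.178). RPN2 read -0.04, 0.18, 0.02, 0.06 and -0.20 on the arrays labelled ppt1, against 0.39, 0.52, 0.19, 0.30 and -0.01 on the wild type arrays. In both strains it was highest at 7 min and lowest at 60 min. For 60 min against 7 min RPN2 gave -0.45 ± 0.13 (adjusted p = 0.0934) and was the lowest member of the regulatory particle in that comparison.

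PRE3, RPN10 and PRE6 were each the highest of their particle in a comparison of 60 min with an earlier time. PRE3, the subunit of the caspase-like active site, was the highest core gene at 60 min at 0.22. It read -0.18, 0.07, -0.24, -0.13 and 0.19 on the arrays labelled ppt1, against -0.22, -0.17, -0.13, -0.16 and -0.16 on the wild type arrays. The 5 wild type values were all negative and close together, and those of the arrays labelled ppt1 spread to both sides of them. RPN10, a ubiquitin receptor, was the highest regulatory gene at 60 min at 0.22, with -0.32, -0.27, -0.40, -0.35 and 0.03 on the arrays labelled ppt1 and -0.41, -0.27, -0.29, -0.27 and -0.33 on the wild type arrays. The array labelled ppt1 at 60 min stood above the others, and the other 9 arrays lay between -0.41 and -0.27. PRE6, the alpha 4 subunit, was the highest core gene for 60 min against 7 min at 0.18 ± 0.13 (adjusted p = 0.508). It read 0.15, 0.20, 0.19, 0.32 and 0.27 on the arrays labelled ppt1, against 0.18, 0.14, 0.45, 0.39 and 0.43 on the wild type arrays.

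**Figure D3:**
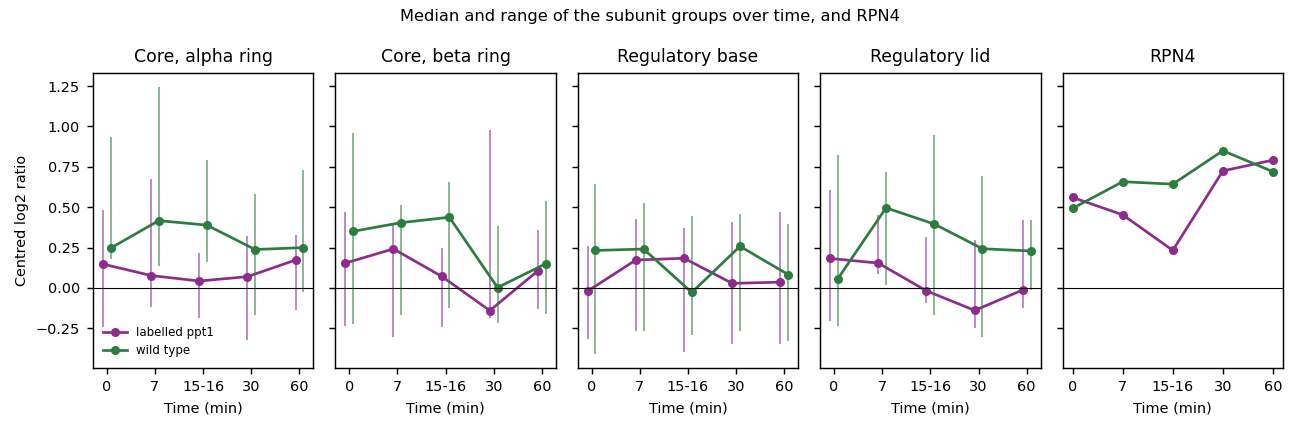
Median (points) and range (bars) of the centred log2 ratio (y axis) over time (x axis, min) for the alpha ring, the beta ring, the base and the lid, and the single values of RPN4, for arrays labelled ppt1 and wild type arrays. The medians of all 4 subunit groups stay between -0.14 and 0.50, and RPN4 stays between 0.23 and 0.85.

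The core and the regulatory particle were next compared within each array, where they share the sample and the reference. The median of the core minus that of the regulatory particle was 0.15, -0.02, -0.07, -0.04 and 0.11 on the arrays labelled ppt1 in order of time. On the wild type arrays it was 0.11, 0.09, 0.22, -0.08 and 0.07. The sign was positive on 6 arrays and negative on 4, so neither particle was above the other throughout. Parts of the particles differed more than the particles did. The lid minus the base was 0.20, -0.02, -0.20, -0.17 and -0.05 on the arrays labelled ppt1, against -0.17, 0.26, 0.42, -0.01 and 0.15 on the wild type arrays. At 7, 15-16 and 60 min the lid was below the base on the arrays labelled ppt1 and above it on the wild type arrays. The alpha ring differed from the beta ring by at most 0.24 on any array.

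By the median correlation over the 10 arrays, the lid was more like the core than like the base, though the ranges of single pairs overlapped widely. As a description, the median correlation between pairs of core genes was 0.44 over 91 pairs, and between lid genes it was 0.42 over 21 pairs. Between lid and core it was 0.38, between base genes 0.28, between base and lid 0.13 and between base and core 0.06. Single pairs ran from -0.57 to 0.90 between lid and core and from -0.72 to 0.85 between base and lid. Those between base and core ran from -0.78 to 0.87. Over all 465 pairs of subunits the median was 0.22, against -0.00 over all pairs of genes with 10 values. The pairs share arrays and the reference, and each correlation has 10 points of 2 strains.

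Among single pairs, PUP2 and PRE7 had the highest correlation, 0.93 over the 9 arrays with a value of PUP2. RPT3 and RPT5, ATPases of the base, reached 0.91, and PRE9, the alpha 3 subunit, reached 0.90 with RPN12. SCL1 was closest to PRE10, the alpha 7 subunit, at 0.87. The correlation of PRE3 with RPN10 was 0.87 although they belong to different particles, and both read highest on the array labelled ppt1 at 60 min.

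RPN4, the activator of the subunit genes, was above the subunit median on all 10 arrays. It read 0.56, 0.45, 0.23, 0.72 and 0.79 on the arrays labelled ppt1, against 0.49, 0.66, 0.64, 0.85 and 0.72 on the wild type arrays. In both strains the values at 30 and 60 min were above that at 0 min, and the strains overlapped. The fitted change was 0.03 ± 0.15 at 7 min (adjusted p = 0.950), -0.09 ± 0.15 at 15-16 min (adjusted p = 0.780), 0.26 ± 0.15 at 30 min (adjusted p = 0.294) and 0.23 ± 0.15 at 60 min (adjusted p = 0.358). After quantile normalization the change at 60 min was 0.58 and passed, with an adjusted p of 0.0457. Between strains RPN4 gave -0.12 ± 0.09 (adjusted p = 0.472). Its profile was most like that of RPN8, with a correlation of 0.67, followed by PRE6 at 0.57.

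The second question was whether the strains differed. Each strain had 1 array at each time, and the time points served as its replicates in this test. A difference in culture or preparation between the arrays of the 2 strains cannot be told apart from a difference of strain. Over the matched pairs of arrays, 3 of 32 members were lower on the arrays labelled ppt1 and 0 were higher, whereas 2.06% of all genes were called lower, 1.73% higher and 3.8% in either direction. At an unadjusted p under 0.05, 12 members differed, all of them lower on the arrays labelled ppt1, against 23.2% of all genes in either direction. The 3 members were SCL1 and PRE5 of the alpha ring and RPN12 of the lid. Each difference was between 1.30-fold and 1.39-fold in size, or between 1.47-fold and 1.60-fold were the values natural logs.

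SCL1, the alpha 1 subunit, read 0.48, 0.68, 0.21, 0.24 and 0.33 on the arrays labelled ppt1, against 0.94, 1.25, 0.80, 0.58 and 0.73 on the wild type arrays. It was lower on the array labelled ppt1 in 5 of 5 pairs, and the groups overlapped only in that the 7 min array labelled ppt1 was above the wild type 30 min array. The means were 0.39 ± 0.19 on the arrays labelled ppt1 and 0.86 ± 0.25 on the wild type arrays (SD over 5 arrays each). The fitted difference was -0.47 ± 0.08 (SE, 95% interval -0.65 to -0.29, limma adjusted p = 0.0169), a ratio 1.39-fold lower. In each strain SCL1 was highest at 7 min, and it had the lowest adjusted p of all members for any change over time, 0.0814.

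PRE5, the alpha 6 subunit, read -0.24, -0.12, -0.18, -0.32 and -0.14 on the arrays labelled ppt1, against 0.24, 0.27, 0.32, -0.16 and 0.25 on the wild type arrays. Every array labelled ppt1 was below 0, and 4 of 5 wild type arrays were above it, with the wild type 30 min array lying among the arrays labelled ppt1. The fitted difference was -0.38 ± 0.08 (95% interval -0.57 to -0.20, limma adjusted p = 0.0405), a ratio 1.30-fold lower. PRE5 was lower on the array labelled ppt1 in 5 of 5 pairs, with differences from -0.50 to -0.16.

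RPN12 read 0.60, 0.45, 0.15, 0.17 and -0.01 on the arrays labelled ppt1, against 0.82, 0.72, 0.95, 0.69 and 0.38 on the wild type arrays. It was lower on the array labelled ppt1 in 5 of 5 pairs, most at 15-16 min, where the pair differed by -0.80. The groups overlapped because the wild type 60 min array lay below 2 arrays labelled ppt1. The fitted difference was -0.44 ± 0.10 (95% interval -0.66 to -0.22, limma adjusted p = 0.0446), a ratio 1.36-fold lower.

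These calls rest on all the arrays together. Without either array of the 0 min pair, or either of the 7 min pair, 0 of 32 members passed. Without any one of the other 6 arrays SCL1 alone passed, so that SCL1 stayed past the threshold in 6 of 10 such fits and PRE5 and RPN12 in 0. Either array of a pair gave the same strain fit when left out, so these fits count once for each of the 5 pairs. Over the 10 fits the difference of SCL1 lay between -0.50 and -0.44, with an adjusted p of 0.0451 to 0.0857. Scaling each array to the same median and spread left SCL1 and PRE5, quantile normalization left SCL1, and without the time term 0 passed.

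**Figure D4:**
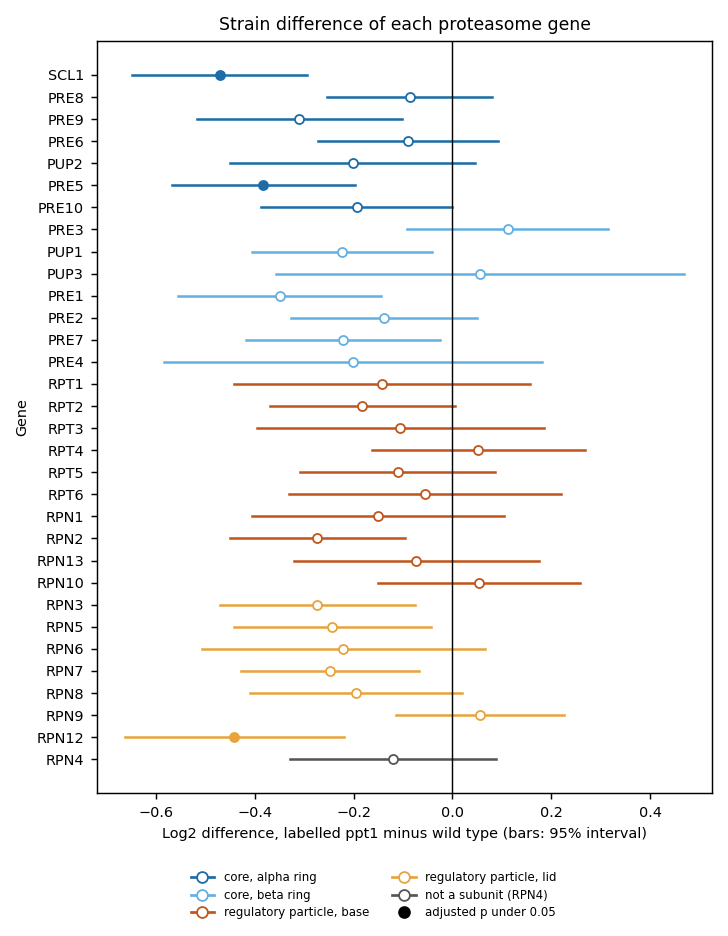
Fitted log2 difference, arrays labelled ppt1 minus wild type arrays (x axis), of each proteasome gene (y axis) with its 95% interval; filled points have a limma adjusted p under 0.05. SCL1, PRE5 and RPN12 are filled and lie between -0.47 and -0.38, and 27 of the 32 genes lie below 0.

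Below the threshold, most other members had differences of the same sign. The fitted difference was negative for 27 of 32 members, against 48.7% of all genes. The median was -0.20 for the core particle and -0.15 for the regulatory particle, beside 0.01 for all genes. Within the particles it was -0.20 for the alpha ring, -0.20 for the beta ring, -0.11 for the base and -0.24 for the lid. All 7 alpha subunits were negative, from -0.47 for SCL1 to -0.09 for PRE8, and 6 of 7 lid subunits were.

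The arrays labelled ppt1 also had the narrower spread over all genes, with a median absolute deviation of 0.28 to 0.37, against 0.32 to 0.41 on the wild type arrays. With that spread made equal, 26 of 32 members were negative, and the medians were -0.17 for the core particle and -0.11 for the regulatory particle, in units of the scaled ratio.

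Next after the called members came PRE1, the beta 4 subunit, which in yeast is needed for full chymotrypsin-like activity. It read 0.47, 0.30, 0.16, -0.18 and 0.02 on the arrays labelled ppt1, against 0.58, 0.51, 0.66, 0.39 and 0.39 on the wild type arrays. Only the 0 min array labelled ppt1 reached the range of the wild type. The fitted difference was -0.35 ± 0.09 (adjusted p = 0.0611), and PRE1 passed when the test was confined to genes with 10 values. RPN2 followed at -0.27 ± 0.08 (adjusted p = 0.0768) and PRE9 at -0.31 ± 0.09 (adjusted p = 0.0842). PRE9 is known in yeast as a core subunit that cells can do without.

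The members at the upper end did not differ beyond the spread between arrays. PRE3 had the highest difference at 0.11 (95% interval -0.09 to 0.31), followed by PUP3 at 0.06 (-0.36 to 0.47), RPN9 at 0.06 (-0.11 to 0.22), RPN10 at 0.05 (-0.15 to 0.26) and RPT4 at 0.05 (-0.16 to 0.27). For RPN9, RPN10, RPT4 and PRE3 the intervals leave out a difference as large as that of PRE5 in either direction. The interval of PUP3 is wider because of its 30 min pair.

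Counting pairs gave a similar split. Of the 28 members with 10 values, 12 were lower on the array labelled ppt1 in 5 of 5 pairs, against 11.2% of all genes with 10 values. These were SCL1, PRE8, PRE9 and PRE5 of the alpha ring, PUP1, PRE1 and PRE7 of the beta ring, RPT2 and RPN2 of the base, and RPN3, RPN7 and RPN12 of the lid. None was higher in 5 of 5 pairs, as 12% of all such genes were. Members are not independent of each other, since they share arrays and the reference.

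PUP1, the subunit of the trypsin-like active site, was the single member with all 5 arrays labelled ppt1 below all 5 wild type arrays, which 2% of genes with 10 values were. It read 0.14, 0.24, 0.25, 0.06 and 0.11 on the arrays labelled ppt1, against 0.35, 0.39, 0.36, 0.28 and 0.54 on the wild type arrays. Its fitted difference was -0.22 ± 0.08 (adjusted p = 0.138) and did not pass.

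**Figure D5:**
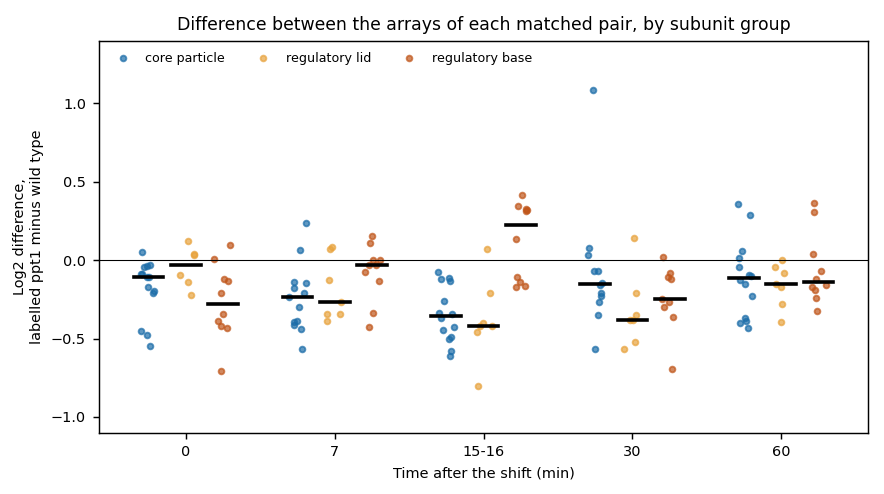
Log2 difference of the array labelled ppt1 minus its wild type partner (y axis) for each subunit (points) with the median of each subunit group (bars), at 0, 7, 15-16, 30 and 60 min (x axis). At 15-16 min the base has a median of 0.22 while the core is at -0.35 and the lid at -0.42.

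The difference between strains was then followed by time, with 1 pair of arrays at each, so these are values without a test. In the core particle the median difference was -0.11, -0.24, -0.35, -0.15 and -0.11 at 0, 7, 15-16, 30 and 60 min. In the lid it was -0.03, -0.27, -0.42, -0.38 and -0.15. In the base it was -0.28, -0.03, 0.22, -0.24 and -0.14, so the base alone had the opposite sign at 15-16 min.

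At 15-16 min all 14 core genes and 6 of 7 lid genes were lower on the array labelled ppt1, and 4 of 10 base genes were, beside 50.3% of all genes. The base genes that were higher there were RPT1 by 0.32, RPT3 by 0.31, RPT4 by 0.33, RPT5 by 0.13, RPN1 by 0.35 and RPN13 by 0.42. RPT1 read 0.17, 0.42, 0.30, -0.24 and 0.07 on the arrays labelled ppt1, against 0.29, 0.31, -0.02, 0.46 and 0.40 on the wild type arrays. Its wild type value was lowest at 16 min, which was also so for RPT3, RPT4, RPT5, RPN1 and RPN13. Without the 15-16 min pair the strain medians were -0.15 for the core particle and -0.20 for the regulatory particle, so that the order of the particles turned round, and SCL1 alone passed.

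Whether the strains differed in their response was tested as the strain difference over the 4 later times minus that at 0 min. No member passed (0 of 31 tested, RPN6 having no 0 min pair), and 0% of all genes did. The lowest adjusted p of a member was 0.993, and 1 member had an unadjusted p under 0.05. This was RPT3, at 0.76 ± 0.23. RPT3 read -0.15, 0.35, 0.27, 0.25 and 0.08 on the arrays labelled ppt1, against 0.56, 0.38, -0.04, 0.23 and 0.20 on the wild type arrays. The 0 min arrays were its lowest value on the arrays labelled ppt1 and its highest on the wild type arrays. This test takes the later times together, so it does not address a turn at a single time, such as that of the base at 15-16 min. The strain differences by time described above remain values without a test.

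Genes that work with the proteasome were compared between strains in the same fit, in which 3.8% of all genes were called. Among 16 assembly factors and associated proteins 0 passed, with 4 at an unadjusted p under 0.05, against 23.2% of all genes. The fitted differences of this list ran from -0.34 for UBP6, a deubiquitinase bound to the proteasome, to 0.56 for NAS2, a chaperone of base assembly. Among 15 genes of ubiquitin, its conjugation and the delivery of substrates, 2 were lower on the arrays labelled ppt1: UBC4, a ubiquitin-conjugating enzyme, at -0.34 (adjusted p = 0.0468) and NPL4, a cofactor of the segregase Cdc48, at -0.39 (adjusted p = 0.0463). That list had 13 of 15 genes below 0 and a median of -0.21. CDC48 itself was the lowest at -0.41 without passing, and UFD4, a ubiquitin ligase, the highest at 0.18. Among 6 regulators of RPN4 or of its gene, the multidrug resistance factor PDR1 was lower at -0.48 (adjusted p = 0.0217).

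After the shift some genes of these lists passed. At 7 min against 0 min the ubiquitin list had 1 of 15 called, UBC5, which fell by 0.63, where 3.02% of all genes were called. At 60 min, where 12.3% of all genes were called, it had 3 of 15, all of them lower: UBC5 at -0.81 (adjusted p = 0.00500), the polyubiquitin gene UBI4 at -0.75 and the conjugating enzyme RAD6 at -0.59. UBI4 and UBC5 were also called lower at 15-16 and 30 min, RAD6 at 30 min, and DOA4, a deubiquitinase that recycles ubiquitin, was called higher at 15-16 min at 0.67. That made 3 of 15 at 15-16 min and 3 of 15 at 30 min, where 7.18% and 11.4% of all genes were called. UBC4 and UBC5 are near-identical genes, and signal of one may have reached the probe of the other. Among the assembly factors POC4, a chaperone of the alpha ring, was called higher at 60 min at 0.60. HSF1, the heat shock factor, which also acts on the RPN4 gene, was called lower at 15-16 min at -0.67 and at 30 min at -0.82. At 7 min the assembly factors ran from -0.37 for TMA17, a stress-induced chaperone of base assembly, to 0.39 for POC4. In limma 0 of 16 were called and 2 had an unadjusted p under 0.05, against 16.2% of all genes. The regulators of RPN4 ran at 7 min from -0.60 for HSF1 to 0.24 for MUB1, which with a ubiquitin ligase promotes the breakdown of the RPN4 protein. Of these, 0 of 6 were called and 1 had an unadjusted p under 0.05, against the same 16.2% of all genes. When each array was left out in turn, DOA4 at 15-16 min and UBC4 and NPL4 between strains passed in 0 of 10 fits. UBC5 at 7 min, HSF1 and UBI4 at 15-16 min and PDR1 between strains passed in 2 of 10. For each of these the 2 fits left out the 2 arrays of 1 pair in turn and gave the same result, so they count as 1. The calls of UBC5 at 15-16, 30 and 60 min, of UBI4 and RAD6 at 30 and 60 min, of HSF1 at 30 min and of POC4 passed in 6 to 9. Of these, UBC5 at 15-16 and 30 min and POC4 did not pass with the spread of the arrays made equal or after quantile normalization. UBI4 at 30 and 60 min and RAD6 at 60 min did not pass after quantile normalization. UBC5 at 60 min and RAD6 and HSF1 at 30 min passed under both.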

How the data were processed

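The data were 10 two-colour arrays, 1 for each strain and time, in a single table of the series. Its values are log ratios of the 2 channels as deposited by the authors, taken here as log2. For the base, platform, dyes, background correction and normalization, nothing is stated in the labels or the table header. Base 10 would need a ratio larger than a 16-bit scanner (65536 levels) can record. A natural log remains possible, and would multiply all log2 values by 1.44 without altering any adjusted p, so folds and counts inside a fold bound would change. Systematic names were matched to symbols through the RefSeq gene table for R64, which named 5358 of 5822 genes. Missing values made up 1.81% of the table and were not imputed.

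The median of each array was subtracted. Using limma 3.58.1 in R 4.3.3, a linear model was fitted with time point (15 and 16 min as 1) and strain as terms to all 10 arrays and all genes, leaving 4 residual and 5.8 prior degrees of freedom. A further fit added a strain by after-shift term, with 3 residual degrees of freedom. The arrays of the 2 strains thus serve as the replicates of a time, and the time points as the replicates of a strain. The threshold was a Benjamini-Hochberg adjusted p under 0.05. The scripts were tested on simulated data. The alternatives were no centring, scaling to an equal median absolute deviation, quantile normalization, only genes with 10 values, no time term, and each array left out in turn. Fits without the 15-16 min pair, and of the related gene lists, were added after seeing the data.

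The members and the related lists were chosen with earlier results of these data known, and lists are described by counts and medians with no test. Every member is named with its group. Values on every array are given for RPN4, for members past any test, and for the highest and lowest member of each particle in each comparison. Related genes are named where they passed a test, and otherwise as the highest and lowest of their list between strains and at 7 min. Some further members were given on every array after their values were seen: PUP1 and RPT1. No sequences or coordinates are given, since the arrays come with no named build.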

Additional observations from a re-analysis of the deposited data

Results flagged for a closer look

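RPT3 and RPT5, both ATPases of the base, moved opposite ways in the 2 strains after the shift. For RPT3 the 4 later arrays minus the 0 min array of the same strain lay between 0.23 and 0.51 on the arrays labelled ppt1, and between -0.60 and -0.18 on the wild type arrays. The strain difference over the later times minus that at 0 min was 0.76 ± 0.23 (SE, limma adjusted p = 0.993). For RPT5 the same values were 0.03 to 0.23 on the arrays labelled ppt1 and -0.37 to -0.04 on the wild type arrays, with a difference of 0.29 ± 0.21 (limma adjusted p = 0.993). Neither difference passed. All 4 values of a strain share its single 0 min array, and 188 of the 4901 genes with 10 values (3.84%) moved in this way. No group had enough arrays to look for single arrays that stand apart within it.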

How the results depend on the processing

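The tests rest on 10 arrays with 1 per strain and time, so a time is compared over 2 arrays, and 4 residual degrees of freedom set the precision. The table gives neither intensities nor background, so which values were dim is unknown. The time term of the strain comparison matches the arrays by time, and the fit without it is given below. No direction of a called member turned under any alternative run. No member passed at 7 min, at 15-16 min, for any time, for 60 min against 7 min or in the test of the response between strains, under any alternative or with any array left out; that last test was run without each of the 8 later arrays. The cause of each change below was not tested.

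Between strains 3 members passed. The count was 1 after quantile normalization and 1 without the 15-16 min pair, and 0 without the time term, which removes the matching by time. With each array left out in turn it lay between 0 and 1, where either array of a pair gave the same strain fit. Leaving out the 15-16 min pair gave the same strain medians as leaving out either of its arrays. At 60 min 0 members passed, and the count was 1 after quantile normalization (RPN4 at 0.58) and 1 over genes with 10 values (RPN12), and 0 to 1 with arrays left out. At 30 min it was 0 to 1 with arrays left out.

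Medians of the particles were small, and some moved by more than their spread. Without centring, which shifts all genes of an array alike, the regulatory particle was at 0.045 at 30 min (all genes 0.039), and at 60 min the core was at 0.093 and the regulatory particle at 0.014 (all genes 0.058). After quantile normalization the values at 60 min were 0.091 for the core and 0.017 for the regulatory particle (all genes 0.025). Over genes with 10 values the regulatory particle was at -2.5e-04 at 60 min, and the core at -0.0072 for 60 min against 7 min.

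With each array left out in turn, the core ranged from -0.022 to 0.071 (7 min), -0.15 to 0.067 (15-16 min), -0.17 to -0.083 (30 min), -0.043 to 0.017 (60 min), -0.14 to -0.04 (60 min against 7 min) and -0.26 to -0.15 (between strains). The regulatory particle ranged from 0.081 to 0.22 (7 min), -0.018 to 0.082 (15-16 min), -0.029 to 0.086 (30 min), -0.072 to 0.0015 (60 min), -0.19 to -0.14 (60 min against 7 min) and -0.20 to -0.11 (between strains). The core minus the regulatory particle ranged from -0.22 to -0.038 (7 min), -0.23 to 0.018 (15-16 min), -0.25 to -0.054 (30 min), -0.0017 to 0.079 (60 min), 0.003 to 0.15 (60 min against 7 min) and -0.093 to 0.046 (between strains).

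The related genes outside the members, in lists of 16, 15 and 6, gave 1, 4, 4 and 4 calls at 7, 15-16, 30 and 60 min. They gave 3 for any time and 3 between strains. Of all genes 3.02%, 7.18%, 11.4% and 12.3% were called at these times, 8.85% for any time and 3.8% between strains. Without centring there were 0 at 7 min, 2 at 15-16 min and 1 for any time. With equal spread there were 0 at 7 min, 1 at 15-16 min, 1 for any time and 1 between strains. After quantile normalization there were 0, 1, 2 and 1 at 7, 15-16, 30 and 60 min, 1 for any time and 1 between strains. Without the 15-16 min pair there was 1 between strains. With arrays left out the lowest count was 0 in each comparison, and the highest was 1, 2, 5 and 4 at 7, 15-16, 30 and 60 min, 3 for any time and 1 between strains.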
